A study of Mus musculus with 8 samples.

Results

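The CXC chemokines of mouse skin were followed here as 8 genes, Cxcl1, Cxcl2, Cxcl9, Cxcl10, Cxcl12, Cxcl13, Cxcl14 and Cxcl16. They were chosen by name as the rows of the gene list that carry these symbols, 8 of 31053 genes counted. No measured value served as a cut-off, but the choice was made with earlier results of these data known. The data were droplet-based single-cell RNA sequencing of dorsal skin from female BALB/c mice aged 14 to 16 weeks. Skin received subcutaneous injections of PBMCsec, the secretome of irradiated human peripheral blood mononuclear cells, in 4 libraries, and of a vehicle control in the other 4 libraries (numbered 1 to 4 in each group). The labels do not state for a library the kind of vehicle, the time after wounding or whether scar was sampled, and they do not say what a shared number marks, so p-values measure the spread between libraries. Each library came from biopsies digested with an enzyme kit for whole skin, which releases all cell types together.

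CXC chemokines are small secreted proteins that steer leukocytes through G protein-coupled receptors. Cxcl1 and Cxcl2 attract neutrophils through Cxcr2, and their genes respond to NF-κB signalling downstream of interleukin 1 and tumour necrosis factor. Cxcl9 and Cxcl10 are induced by interferon and attract activated T cells through Cxcr3. Cxcl12 is a constitutive chemokine that acts through Cxcr4 and is scavenged by Ackr3, Cxcl13 attracts B cells through Cxcr5, and Cxcl14 is made constitutively by epithelium. Cxcl16 is made as a membrane protein that can be shed by Adam10 and binds Cxcr6 on T cells.

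In the GRCm38 annotation, 5 members lie on chromosome 5, namely Cxcl1 at chr5:90891241-90893115 and Cxcl2 at chr5:90903871-90905938 on the plus strand, Cxcl9 at chr5:92321347-92328079 and Cxcl10 at chr5:92346638-92348889 on the minus strand, and Cxcl13 at chr5:95956951-95961068 on the plus strand. The others lie apart, with Cxcl12 at chr6:117168535-117181367 on the plus strand, Cxcl14 at chr13:56288643-56296551 on the minus strand and Cxcl16 at chr11:70453983-70459984 on the minus strand. All 8 are protein-coding.

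The 250 bases before the RefSeq start site (GRCm38.p6) were read for the 7 members with an entry, all but Cxcl16, and searched on both strands for the κB motif, for the interferon-response half-site pair GAAANNGAAA, for the AP-1 motif TGANTCA and for TATAAA. The 3 promoters printed, 5′ to 3′ on the gene's own strand with κB and GAAANNGAAA matches in capitals, belong to the neutrophil attractants, which share a word, and to the interferon-inducible Cxcl10, which held the most kinds of match.
Cxcl1: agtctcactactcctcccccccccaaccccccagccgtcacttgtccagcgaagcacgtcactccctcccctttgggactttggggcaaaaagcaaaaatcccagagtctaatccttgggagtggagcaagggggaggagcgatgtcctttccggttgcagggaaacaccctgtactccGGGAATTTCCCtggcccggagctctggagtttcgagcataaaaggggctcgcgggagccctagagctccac
Cxcl2: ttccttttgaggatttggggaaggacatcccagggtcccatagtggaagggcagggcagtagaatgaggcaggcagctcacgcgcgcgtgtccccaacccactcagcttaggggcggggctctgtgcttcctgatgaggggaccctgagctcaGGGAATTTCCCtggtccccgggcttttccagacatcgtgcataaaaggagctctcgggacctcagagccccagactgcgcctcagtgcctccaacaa
Cxcl10: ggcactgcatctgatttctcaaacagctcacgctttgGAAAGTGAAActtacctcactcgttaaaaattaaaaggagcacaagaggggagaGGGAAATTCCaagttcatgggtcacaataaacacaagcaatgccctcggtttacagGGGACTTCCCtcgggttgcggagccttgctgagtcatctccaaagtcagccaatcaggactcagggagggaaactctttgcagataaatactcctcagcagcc
These windows span chr5:90890995-90891244 on the plus strand for Cxcl1, chr5:90903649-90903898 on the plus strand for Cxcl2 and chr5:92348890-92349139 on the minus strand for Cxcl10.

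Cxcl1 and Cxcl2 held the same κB word, GGGAATTTCC, which began 71 bases before the start of Cxcl1 and 97 bases before that of Cxcl2. In both, it ran on by 1 base and so also matched the motif on the other strand, overlapping the first match. The word occurred in 28 of 32851 mouse promoters of this length (0.0852%), and any κB match in 3.9%. The word was taken from the Cxcl1 and Cxcl2 promoters, which are among those counted. A fixed word is rarer than a motif with free letters, so these shares are not comparable. Cxcl10 held 2 other κB matches, GGGAAATTCC and GGGACTTCCC, an interferon-response match, GAAAGTGAAA, and an AP-1 match, against shares of 2.98% of promoters for GAAANNGAAA and 6.75% for TGANTCA. Cxcl14 held 1 interferon-response match, GAAACAGAAA. Cxcl9 and Cxcl13 held 1 TATAAA each (12.4% of promoters) and no κB match in this window, and Cxcl12 held none of the 4 motifs. A match describes letters only.

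**Figure D1:**
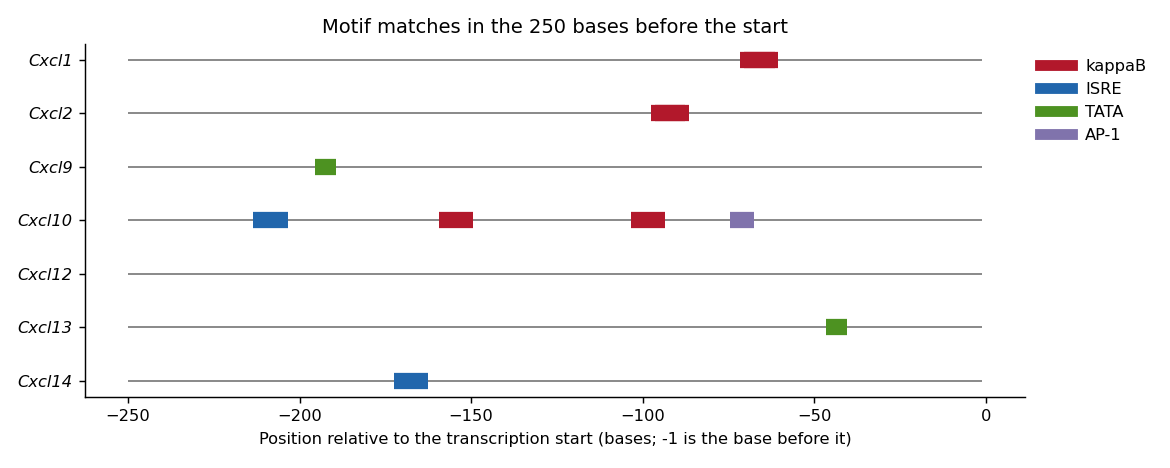
Matches of the 4 motifs in the 250 bases before the start site of the 7 members with a RefSeq entry. The horizontal axis is the distance from the start site in bases, each row is a gene and each coloured block is a match (kappaB for κB, ISRE for GAAANNGAAA). Cxcl1, Cxcl2 and Cxcl10 are the rows with a κB match, and the row of Cxcl12 is empty.

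The files held 26231 barcodes, of which 6150 cells passed the study's limits (151 to 1659 per library), with a median of 6156 to 9521 unique molecular identifiers (UMIs, each a counted RNA molecule) per kept cell in a library. Most of the others, 16900 barcodes, exceeded the limit of 5% mitochondrial UMIs. Vehicle 1 and vehicle 2 were the smallest libraries, with 151 and 208 cells. Cells were clustered with the 8 members left out of the clustering genes, and clusters were named only from marker genes, so each class name means cells like that type. The named classes were fibroblasts (FBs, 1353 cells), T and other lymphoid cells (TCs, 763), keratinocytes (KCs, 898), hair follicular cells (HFs, 862), dendritic cells with Langerhans cells (DCs, 356), macrophages (161), neutrophils (119), endothelial cells (ECs, 85), melanocytes (61), smooth muscle cells or pericytes (39) and mast cells or basophils (28). A further 1425 cells stayed unnamed. Only 4 of 6146 distinct barcodes among kept cells occurred in more than 1 library, and Scrublet called 22 cells (0.358%) doublets, too few to be taken as a working call. Levels are given as the UMIs of the gene scaled to a common total of the class (CPM), as mean ± SD over libraries with at least 10 cells of the class.

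The 8 genes fell apart by how widely they were detected. Cxcl12 and Cxcl14 were broad, with a UMI in 40.9% and 40.3% of kept cells, and Cxcl16 was found in 22.3%. The other members were carried by few cells, from 8.41% for Cxcl1 and 5.97% for Cxcl2 to 3.8% for Cxcl10, 3.32% for Cxcl13 and 1.63% for Cxcl9. The 1% of cells with the most UMIs held 71.3% of all Cxcl1 UMIs, 72.8% of Cxcl2 and 94.2% of Cxcl9, but 24.9% of Cxcl12 and 15.1% of Cxcl14. For Cxcl1, Cxcl2 and Cxcl9 a class level thus rests on few cells, and the highest single cell held 462 of the 10760 Cxcl1 UMIs and 133 of the 654 Cxcl9 UMIs.

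**Figure D2:**
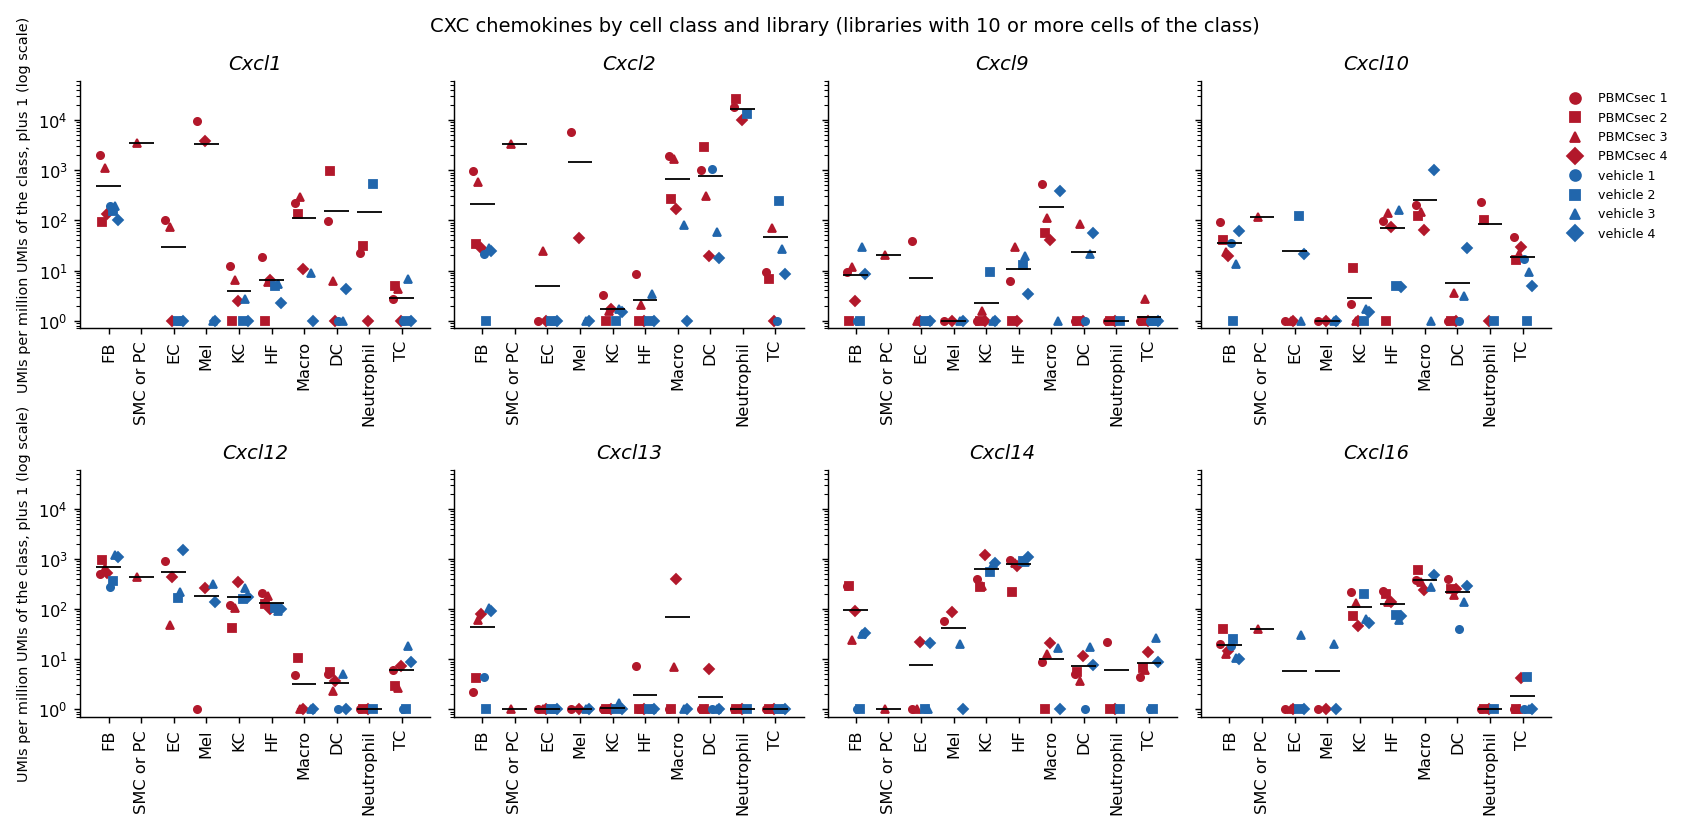
Level of the 8 members in each cell class, in CPM plus 1 on a log axis, with a point for each library with at least 10 cells of the class and a bar for their mean (1 library for smooth muscle cells or pericytes, SMC or PC). Cxcl2 is highest in neutrophils (16789 CPM), Cxcl12 in FBs (695 CPM), Cxcl14 in the hair follicular and keratinocyte classes (789 and 617 CPM) and Cxcl16 in macrophages (384 CPM).

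Among the neutrophil attractants, Cxcl1 was mainly a fibroblast transcript. FBs held 83.9% of its UMIs pooled over libraries, had a UMI in 27.3% of cells and stood at 492 ± 690 CPM (SD, n = 8), with libraries from 90.5 to 1990 CPM. Of the 9028 Cxcl1 UMIs in FBs, 3288 lay in PBMCsec 1 and 4791 in PBMCsec 3. In PBMCsec 2 the order of shares was turned, with 56 UMIs in FBs and 223 in DCs and macrophages. The mean of melanocytes was higher than that of FBs, 3374 ± 4578 CPM (n = 4), but rested on 7 of 61 cells. Of these cells, 5 were among the 5% of cells with the highest Scrublet score, and they held 80.3% of the class's Cxcl1 UMIs. The melanocyte mean was 1268 CPM without PBMCsec 1. Pooled over the class, fibroblast markers summed to 9967 CPM, above the melanocyte markers at 6959 CPM. In PBMCsec 1 fibroblast markers summed to 652 CPM, melanocyte markers to 2908 and Schwann cell markers to 3635. Without that top 5% no library held 10 melanocytes, and FBs, at 502 CPM, had the highest mean of the classes left with at least 3 libraries of 10 cells. Without PBMCsec 1 the mean of FBs was 278 CPM. Smooth muscle cells or pericytes had too few libraries to enter this order. A UMI was found in 18 of their 39 cells, and the 12 cells of PBMCsec 3 stood at 3534 CPM, above the FBs of that library. Of the 18 cells, 10 were among that top 5% and held 41.7% of the class's Cxcl1 UMIs, and 1 cell held 243 of 475. Fibroblast markers summed to 5233 CPM in the 12 cells, against 50731 CPM in the FBs of PBMCsec 3. DCs stood at 152 ± 356 CPM and macrophages at 110 ± 126 CPM, but cells of the top 5% held 80.8% and 47.7% of their Cxcl1 UMIs. Without these cells the means were 24.6 and 55.6 CPM, and without PBMCsec 2 DCs were at 17.5 CPM. FBs exceeded DCs in 6 of 7 libraries, by 3.25 on the log2(CPM + 10) scale (exact sign-flip test, p = 0.0469, adjusted p = 0.545 over 64 neighbouring pairs of classes). In TCs, which should lack it, 0.92% of cells had a UMI at a median depth of 3365 UMIs per cell, against 9327 UMIs in FBs.

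Within the FBs, Cxcl1 was uneven. A cluster led by Ptx3, Mrgprg, Smpd3 and Ccl2, of 309 cells, held 40.8% of all Cxcl1 UMIs. Its level was 4368 CPM against 1241 in the other FBs of PBMCsec 1, 2351 against 731 in PBMCsec 3, 588 against 102 in vehicle 3 and 297 against 50.5 in vehicle 4. In PBMCsec 4 the order was turned, with 97.2 CPM in the cluster and 147 in the other FBs. The remaining libraries had fewer than 10 cells of it.

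Cxcl2 was mainly a neutrophil transcript by level. Neutrophils stood at 16789 ± 6935 CPM (n = 4), with 18137 CPM in PBMCsec 1, 25921 in PBMCsec 2, 10110 in PBMCsec 4 and 12988 in vehicle 2, and 66.4% of them had a UMI at a median depth of only 1537 UMIs. DCs (767 ± 1047 CPM), macrophages (676 ± 858 CPM) and FBs (207 ± 357 CPM) were lower, and their means rested much on 1 library each, falling to 410 CPM in DCs without PBMCsec 2, 431 in macrophages without PBMCsec 1 and 101 in FBs without PBMCsec 1. Without the cells of highest Scrublet score, DCs were at 358 CPM. KCs had a UMI in 0.78% of cells at a median of 10869 UMIs. Melanocytes, at 1432 ± 2835 CPM, took 99.7% of their Cxcl2 UMIs from cells of the top 5% by Scrublet score. By share of molecules, FBs held 37.2% of the Cxcl2 UMIs and neutrophils 31.7%, but this order rested on PBMCsec 1 and 3. It was 34.9% against 35.8% without PBMCsec 1 and 21.6% against 43.8% without PBMCsec 3, and the vehicle libraries held 105 UMIs in FBs and 546 in neutrophils. In FBs pooled over libraries, 114 of the 133 cells with Cxcl2 also had Cxcl1 (85.7%), against 21.0% of the cells without Cxcl2. Of the 133 cells, 26 lay in PBMCsec 1 and 86 in PBMCsec 3, where 70 of 162 and 181 of 480 FBs had Cxcl1. The shares were not taken within libraries, so a difference between libraries can add to the contrast. Cxcr2, the receptor gene shared by Cxcl1 and Cxcl2, lay in the neutrophils, which held 86.3% of its UMIs at 1346 ± 553 CPM. Cxcr1 had 2 UMIs in all. Of the other ligands of this kind, Cxcl3 reached 180 ± 163 CPM in neutrophils and 127 ± 298 CPM in DCs, Cxcl5 had 78 UMIs in 28 cells (11.8 ± 22.6 CPM in FBs), and Ppbp had none. Cxcl15 had 1 UMI and Cxcl17 had 2. Pf4, the platelet factor 4 gene, was a macrophage transcript here at 1046 ± 474 CPM.

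The interferon-inducible pair was rare. Cxcl9 was highest in macrophages, at 186 ± 215 CPM (n = 6), from 8 of 161 cells. PBMCsec 1 had 521 CPM there, vehicle 4 had 385 and vehicle 3 had none, and without PBMCsec 1 the mean was 118 CPM. Cxcl10 stood at 254 ± 368 CPM in macrophages, 83.2 ± 109 CPM in neutrophils, 68.4 ± 68.0 CPM in HFs and 34.7 ± 28.8 CPM in FBs, and no neighbouring pair of classes differed past an adjusted p of 0.05. The macrophage value rested on vehicle 4, with 991 CPM from 2 cells, and was 107 CPM without it, while neutrophils were at 34.3 CPM without PBMCsec 1. HFs held 43.7% of the Cxcl10 UMIs, of which 1 cell in vehicle 3 held 281. Over the 36 clusters, the levels of the pair had a Pearson r of 0.59, given as a description because clusters share libraries. Their receptor gene Cxcr3 lay in TCs at 79.1 ± 24.3 CPM, with a UMI in 19.8% of cells.

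Among the constitutive chemokines, Cxcl12 was highest in FBs at 695 ± 342 CPM (n = 8, 272 to 1217), with a UMI in 75.5% of cells. ECs followed at 554 ± 570 CPM (n = 6), from 47.4 CPM in PBMCsec 3 to 1535 CPM in vehicle 4, and were not separated from FBs (exact sign-flip test, p = 0.281). The EC mean was 358 CPM without vehicle 4. Without the cells of highest Scrublet score it was 233 CPM over the 3 libraries that kept 10 ECs, with FBs at 703 CPM. Of the named classes, melanocytes (178 CPM, n = 4), KCs (170 ± 101 CPM, 46.4% of cells) and HFs (130 ± 45.1 CPM, 38.4%) came next. Only 9 of 61 melanocytes had a Cxcl12 UMI, and 5 of these 9 were among the cells of highest Scrublet score. TCs had a UMI in 1.70% of cells. Unnamed cells stand outside this order but also held Cxcl12. Their cluster led by Id4 and Scrg1 ranged from 217 CPM in PBMCsec 3 to 642 CPM in PBMCsec 1, over libraries with at least 10 of its cells. HFs exceeded TCs in 7 of 7 libraries, by 3.17 on the log2(CPM + 10) scale (exact sign-flip test, p = 0.0156, adjusted p = 0.5).

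The FBs with most Cxcl12 were 1 cluster of 239 cells, led by Adamts18, Peg3, Hpgd and Slit2, which held 37.2% of all Cxcl12 UMIs and had a UMI in 92.9% of cells. It exceeded the other FBs in all 6 libraries with at least 10 of its cells. The values were 1541 against 344 CPM in PBMCsec 1, 1391 against 793 in PBMCsec 2 and 2939 against 300.2 in PBMCsec 3. They were 1823 against 309 CPM in PBMCsec 4, 3688 against 296 in vehicle 3 and 4237 against 508 in vehicle 4. The gap was smallest in PBMCsec 2, and the other FBs were not empty of Cxcl12 in any of them. Among ECs, the cluster led by Fabp4, Cd36 and Plvap had 1129 CPM over all its cells pooled, but at most 7 cells in a library, from 103 CPM in PBMCsec 3 to 3651 CPM in vehicle 4. The receptor gene Cxcr4 lay in neutrophils (735 ± 150 CPM) and TCs (113 ± 52.6 CPM), and the scavenger gene Ackr3 lay in FBs (424 ± 136 CPM, 73.3% of cells). The Ptx3 cluster, not the cluster rich in Cxcl12, held the largest part of the Ackr3 of any cluster, with 36.6% of its UMIs and a UMI in 96.1% of its cells.

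Cxcl13 was a fibroblast transcript, with 89.3% of its 860 UMIs in FBs and a UMI in 14.5% of them (42.9 ± 45.5 CPM, n = 8). The higher mean of macrophages, 67.5 ± 162 CPM, came from 3 cells, with 98.8% of the UMIs in PBMCsec 4. Its receptor gene Cxcr5 had 10 UMIs in 8 cells.

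Cxcl14 was an epithelial transcript. HFs stood at 789 ± 274 CPM (n = 7, 216 to 1066; 65.7% of cells) and KCs at 617 ± 342 CPM (276 to 1206; 78.8% of cells), which did not differ past the test (exact sign-flip test, p = 0.25). KCs exceeded FBs, at 93.9 ± 122 CPM, in 6 of 7 libraries, by 3.07 on the log2(CPM + 10) scale (exact sign-flip test, p = 0.0312, adjusted p = 0.5). DCs and TCs were low, at 6.42 and 7.50 CPM. The unnamed cells held 51.6% of its UMIs at 985 ± 530 CPM. Levels of the clusters from here on are pooled over all their cells unless a library is named. A cluster led by Tagln, Dio3, Acta2 and Foxe1 had 3163 CPM and a UMI in 97.3% of 223 cells, and a cluster led by Id4 and Scrg1, with the follicle stem cell gene Lgr5 among its leading genes, had 2109 CPM and a UMI in 98.6% of cells. The HF cluster led by Ptn and Grem1 had 2492 CPM. The 2 KC clusters with most, led by Pthlh and by Krt6a, had 1459 and 1284 CPM. Among FBs, the cluster led by Mgp, Angptl1, Hmcn2 and Fbln7 exceeded the other FBs in all 6 libraries with at least 10 of its cells, from 770 against 38.9 CPM in PBMCsec 1 to 393 against 260 CPM in PBMCsec 2. The Cxcl14 molecules of FBs were concentrated there in PBMCsec 1, where this cluster held 421 of 464.

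**Figure D3:**
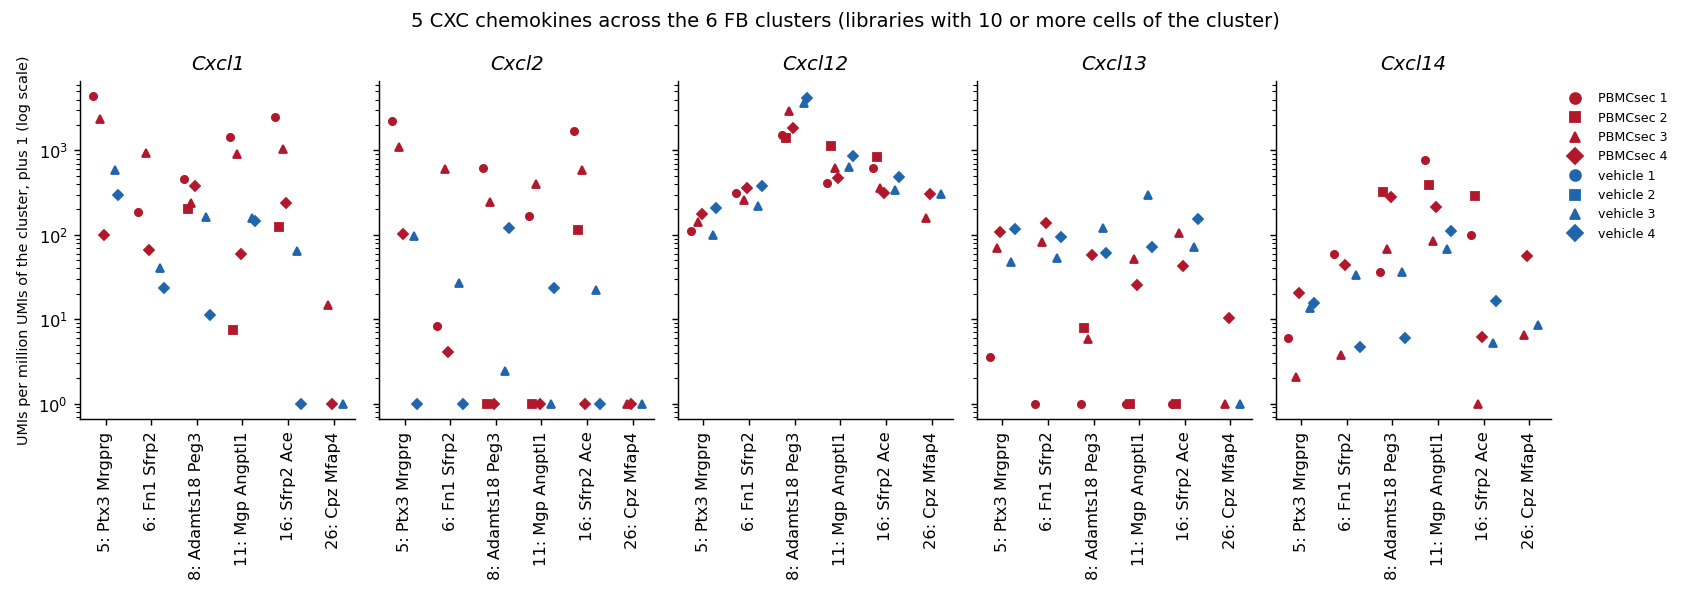
Level of 5 members in the 6 FB clusters, in CPM plus 1 on a log axis, with a point for each library with at least 10 cells of the cluster. Cxcl12 is highest in the Adamts18 and Peg3 cluster (1391 to 4237 CPM), Cxcl1 in the Ptx3 cluster in 4 of 5 libraries and Cxcl14 in the Mgp and Angptl1 cluster in 5 of 6.

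Cxcl16 was shared by myeloid and epithelial cells. Macrophages stood at 384 ± 128 CPM (n = 6, 241 to 589), with a UMI in 56.5% of cells, and DCs at 221 ± 114 CPM (n = 7, 38.6 to 398), with 42.4%. These classes were not separated (exact sign-flip test, p = 0.125). HFs (128 ± 64.8 CPM) and KCs (111 ± 72.7 CPM) followed, and FBs had 17.9 ± 9.92 CPM. DCs exceeded HFs in 6 of 6 libraries, by 0.90 on the log2(CPM + 10) scale (exact sign-flip test, p = 0.0312, adjusted p = 0.5), and KCs exceeded FBs in 7 of 7, by 1.97 (p = 0.0156 in the same exact test, adjusted p = 0.5). TCs had a UMI in 0.26% of cells, and neutrophils in 0 of 119, which allows up to 2.52% of neutrophils with a UMI at this depth (median of 1537 UMIs) and sets no limit on neutrophils that express the gene. The cluster led by Cd207, the Langerhans cell lectin, had 296 CPM and a UMI in 66.9% of cells, the KC cluster led by Serpinb2 and Fosl1 had 244 CPM in 78.3% of cells and the HF cluster led by Sostdc1 had 225 CPM in 69.1%. The receptor gene Cxcr6 lay in TCs, at 622 ± 142 CPM and 63.3% of cells. Of the decoy receptor genes, Ackr1 (102 ± 101 CPM) and Ackr2 (55.4 ± 58.8 CPM) were highest in ECs and Ackr4 in HFs (52.6 ± 26.9 CPM).

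Of the 64 pairs of neighbouring classes compared over the 8 members, 5 had an unadjusted p under 0.05 and none passed after adjustment. The exact sign-flip test over 7 libraries cannot go below p = 0.0156, and with fewer libraries its floor is higher. Most pairs lay above the lowest p that their number of libraries allows. Orders of mean levels are therefore descriptions, beyond the counts of libraries given.

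For each member, the 3 genes whose mean level over the 36 clusters was most like its own were found among 12788 genes, as a description over clusters that share libraries. Cxcl1 was most like Tmod1, Ildr2 and Scn7a (Pearson r of 0.88, 0.88 and 0.87), Cxcl2 like Plac8, Aldh3b1 and Zeb2os (0.81, 0.78 and 0.72) and Cxcl9 like Fxyd2, Rnase2a and Adap2 (0.74, 0.64 and 0.63). Cxcl10 was most like Mdm1, Cxcl9 and the interferon-induced Oasl2 (0.63, 0.59 and 0.57). Cxcl12 was most like Nrep, L3hypdh and Fam171a2 (0.86, 0.84 and 0.83), and Cxcl13 like Scamp5, the complement gene Cfb and Ifi211 (0.86 each). Cxcl14 was most like Btbd11, Epb41l4b and 2310030G06Rik (0.91, 0.89 and 0.89) and Cxcl16 like Zmynd15, Pkib and Krt80 (0.79, 0.78 and 0.77). Among the members themselves, Cxcl1 had an r of 0.68 with Cxcl2 and of 0.62 with Cxcl13.

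The comparison of PBMCsec with vehicle asks whether the injected secretome changed these chemokines. It was made on counts summed per library and class with edgeR's quasi-likelihood test, adjusted over all genes tested by the Benjamini-Hochberg method. Values in the following are CPM scaled by the trimmed mean of M-values (TMM CPM). In FBs, 0 of the 8 members passed an adjusted p of 0.05, as did 0 of 9146 genes (0% called). At an unadjusted p under 0.05, 3 members were higher after PBMCsec and none lower, against 1.39% of all genes higher and 1.17% lower.

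Cxcl1 in FBs measured 2105, 93.6, 1103 and 142 TMM CPM in PBMCsec 1 to 4, and 235, 163, 187 and 102 in vehicle 1 to 4. The groups overlapped, since PBMCsec 1 and 3 were high while PBMCsec 2 lay below every vehicle library. The means were 861 ± 951 and 172 ± 55.2 (SD, n = 4 each), and the fitted log2 fold change was 2.35 (SE 0.77, adjusted p = 0.9998 by edgeR). Without PBMCsec 1 the fold change was 1.41. An exact permutation test of the log2 values gave p = 0.4. FBs with at least 20 Cxcl1 UMIs numbered 26, 1, 58 and 2 in PBMCsec 1 to 4 and 1, 0, 7 and 2 in vehicle 1 to 4, out of 162, 68, 480 and 131 and of 28, 20, 313 and 151 FBs. The share of FBs with any Cxcl1 UMI was 26.8% and 24.4% (exact permutation test, p = 0.771).

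Cxcl2 in FBs measured 1003, 33.4, 586 and 28.3 TMM CPM after PBMCsec and 24.7, 0, 25.9 and 23.6 after vehicle. The high libraries were again PBMCsec 1 and 3. PBMCsec 2 and 4 lay just above the vehicle libraries only on this scale, since without the TMM factor PBMCsec 4 had 26.7 CPM and vehicle 3 had 26.8. In PBMCsec 2 all 20 UMIs came from 1 cell, and in PBMCsec 4 a single cell held 35 of 37. The means were 413 ± 473 and 18.5 ± 12.4, and the log2 fold change was 4.23 (SE 1.03, adjusted p = 0.9998 by edgeR). On the TMM scale an exact permutation test gave p = 0.0286, the smallest that 4 against 4 libraries allow. On unscaled CPM, where Cxcl2 overlapped, 0.437% of genes had every PBMCsec library above every vehicle library. The share of such genes on the TMM scale was not counted.

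Cxcl14 in FBs measured 297, 302, 23.9 and 96.5 TMM CPM after PBMCsec and 0, 0, 29.7 and 32.7 after vehicle. The groups overlapped through PBMCsec 3. Vehicle 1 and vehicle 2 had 28 and 20 FBs, and a count of 0 there allows up to 10.2 and 18.2 CPM. The means were 180 ± 141 and 15.6 ± 18.1, and the log2 fold change was 2.91 (SE 0.76, adjusted p = 0.9998 by edgeR). An exact permutation test gave p = 0.0857. In the libraries numbered 3 and 4 alone the log2 fold change was 0.86. In those numbered 1 and 2 alone Cxcl14 passed (adjusted p = 0.0156 by edgeR), but both vehicle libraries were at 0, so the fitted fold is no size. The share of FBs with a Cxcl14 UMI was 20.7 ± 12.1% and 7.23 ± 8.40% (exact permutation test, p = 0.114). After thinning to 1000 UMIs, which left out shallower cells, the same exact permutation test gave p = 0.0857.

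The other members did not move past the test in FBs. Cxcl12 measured 540, 964, 686 and 554 TMM CPM after PBMCsec and 329, 392, 1177 and 1073 after vehicle, so the vehicle libraries lay on both sides of the PBMCsec libraries (log2 fold change −0.14). Cxcl13 measured 1.28, 3.34, 61.2 and 82.7 after PBMCsec and 4.12, 0, 102 and 92.0 after vehicle. It was low in the libraries numbered 1 and 2 and high in those numbered 3 and 4 of both groups (−0.72). Cxcl9 and Cxcl10 had log2 fold changes of −1.12 and 0.51, with values of at most 27.8 and 95.4 TMM CPM. Cxcl16 ranged from 11.7 to 40.1 after PBMCsec and from 9.12 to 26.1 after vehicle (0.74).

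**Figure D4:**
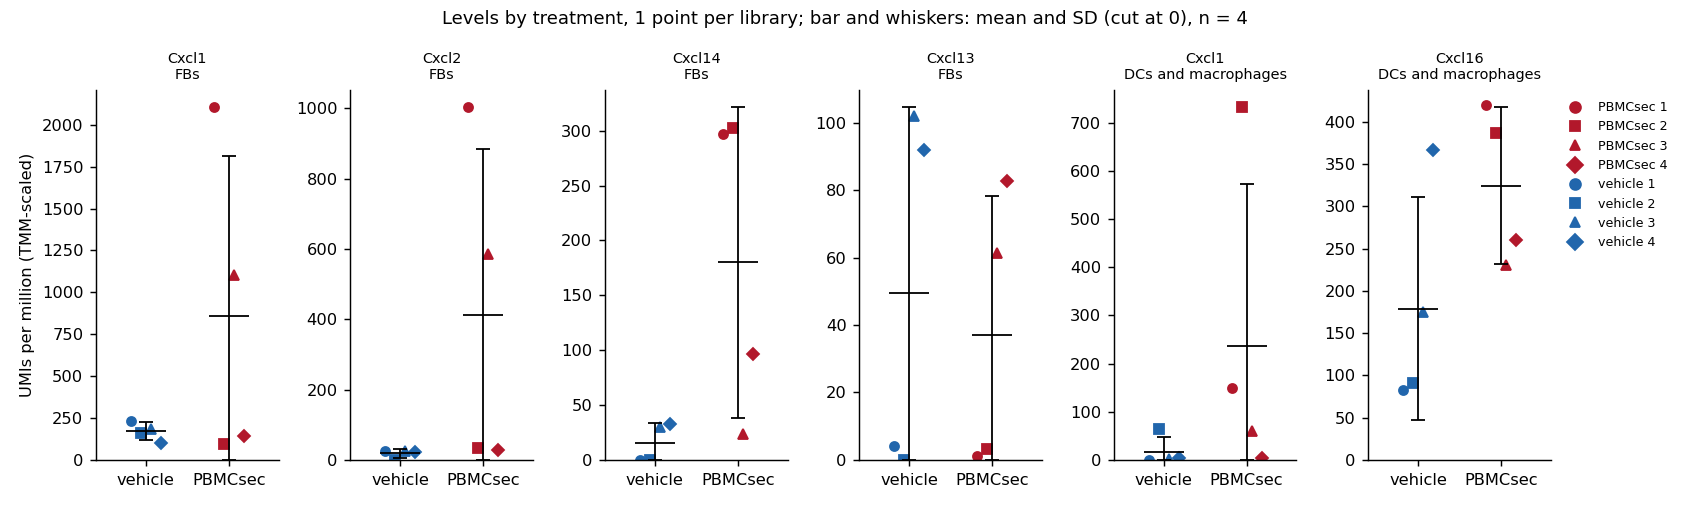
TMM CPM of 4 members in FBs and of 2 in DCs and macrophages, with a point for each library (the marker shape gives its number) and a bar and whiskers for the group mean and SD, cut at 0. In FBs, PBMCsec 1 and 3 are the high libraries for Cxcl1 and Cxcl2, and the libraries numbered 1 and 2 are low for Cxcl13 in both groups.

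DCs and macrophages were tested together, since vehicle 2 held 15 of them and vehicle 1 held 23. Macrophages made up 25.98% to 41.3% of them after PBMCsec and 26.1% to 40.0% after vehicle. None of the 4 members tested passed an adjusted p of 0.05 (0% of 5590 genes did), and 1 was higher at an unadjusted p under 0.05, against 2.61% of all genes higher and 2.06% lower. That member was Cxcl1, at 148, 732, 60.4 and 3.64 TMM CPM after PBMCsec and 0, 63.8, 1.71 and 2.96 after vehicle. The groups overlapped, and in PBMCsec 2 a single cell held 119 of 223 UMIs. Over all libraries, cells of the top 5% by Scrublet score held 80.8% of the Cxcl1 UMIs of DCs and 47.7% of those of macrophages. An exact permutation test of the log2 values gave p = 0.0857. The log2 fold change was 4.80 (SE 1.37, adjusted p = 0.682 by edgeR), and it was 3.17 without PBMCsec 2 and 6.87 without vehicle 2. With the library number as a block it was 4.09 and passed (adjusted p = 0.0109 by edgeR), but the deviations of same-numbered libraries were not correlated in every pair.

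Cxcl16 in DCs and macrophages measured 419, 387, 230 and 260 TMM CPM after PBMCsec and 82.7, 91.1, 175 and 366 after vehicle. All PBMCsec libraries lay above 3 of the 4 vehicle libraries, and vehicle 4 lay above PBMCsec 3 and 4. The means were 324 ± 92.9 and 179 ± 132, with a log2 fold change of 0.79 (SE 0.39, adjusted p = 0.9999 by edgeR). An exact permutation test gave p = 0.114. In the libraries numbered 1 and 2 alone the log2 fold change was 2.23 (adjusted p = 0.0373 by edgeR), and in those numbered 3 and 4 alone −0.11. In DCs alone the unscaled levels were 398, 252, 190 and 247 CPM after PBMCsec and 38.6, 137 and 284 in vehicle 1, 3 and 4 (vehicle 2 held 9 DCs). In macrophages alone they were 380, 589, 353 and 241 CPM after PBMCsec and 276 and 466 in vehicle 3 and 4 (vehicle 1 and vehicle 2 held 6 macrophages each). In DCs and macrophages together, Cxcl2 measured 1391, 2182.3, 580 and 74.7 TMM CPM after PBMCsec and 898, 829, 65.1 and 14.8 after vehicle. The libraries numbered 1 and 2 of both groups and PBMCsec 3 were the high ones (log2 fold change 1.29). Cxcl10 was 274.8 in vehicle 4, where 1 cell held 57 of 93 UMIs, and at most 73.5 in the other 7 libraries.

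KCs and HFs were joined, since vehicle 1 held only 7 and 8 of them, a choice made after the counts of cells were seen. None of the 4 members tested passed (0% of 9686 genes), and none had an unadjusted p under 0.05, against 1.54% of genes higher and 0.816% lower. Cxcl14 measured 689, 289, 573 and 1017 TMM CPM after PBMCsec and 161, 687, 760 and 934 after vehicle. The groups overlapped widely (log2 fold change 0.00, SE 0.44). Cxcl12 had a log2 fold change of 0.27, Cxcl16 of 0.55 and Cxcl10 of 0.71. The value of Cxcl10 was 4.55 without vehicle 3 and 0.25 without vehicle 4. In TCs no member had enough counts to be tested (0% of 4716 genes called, with 1.53% higher and 1.68% lower at an unadjusted p under 0.05), and Cxcr3, Cxcr4 and Cxcr6 had log2 fold changes of 0.35, −0.21 and 0.11 there, none past the test.

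In all kept cells together, none of the 8 members passed (0% of 13182 genes). Cxcl1 was higher at an unadjusted p under 0.05, as were 1.97% of genes, while 0.569% were lower. It measured 730, 129, 419 and 47.1 TMM CPM after PBMCsec and 48.5, 26.8, 42.0 and 21.3 after vehicle, which overlap by PBMCsec 4 and vehicle 1 (log2 fold change 3.27, SE 0.77, adjusted p = 0.99999 by edgeR). In such a sum, more cells of a type and more RNA per cell cannot be told apart. Cxcl2 measured 642, 1110, 286 and 60.7 after PBMCsec and 453, 347, 14.4 and 12.4 after vehicle. Neutrophils numbered 20, 35, 9 and 25 of 701, 313, 1515 and 791 kept cells after PBMCsec. After vehicle they numbered 6, 15, 6 and 3 of 151, 208, 1659 and 812. As a share of kept cells the groups overlapped, with vehicle 1 above PBMCsec 1. The part of neutrophils in the Cxcl2 level was not tested.

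**Figure D5:**
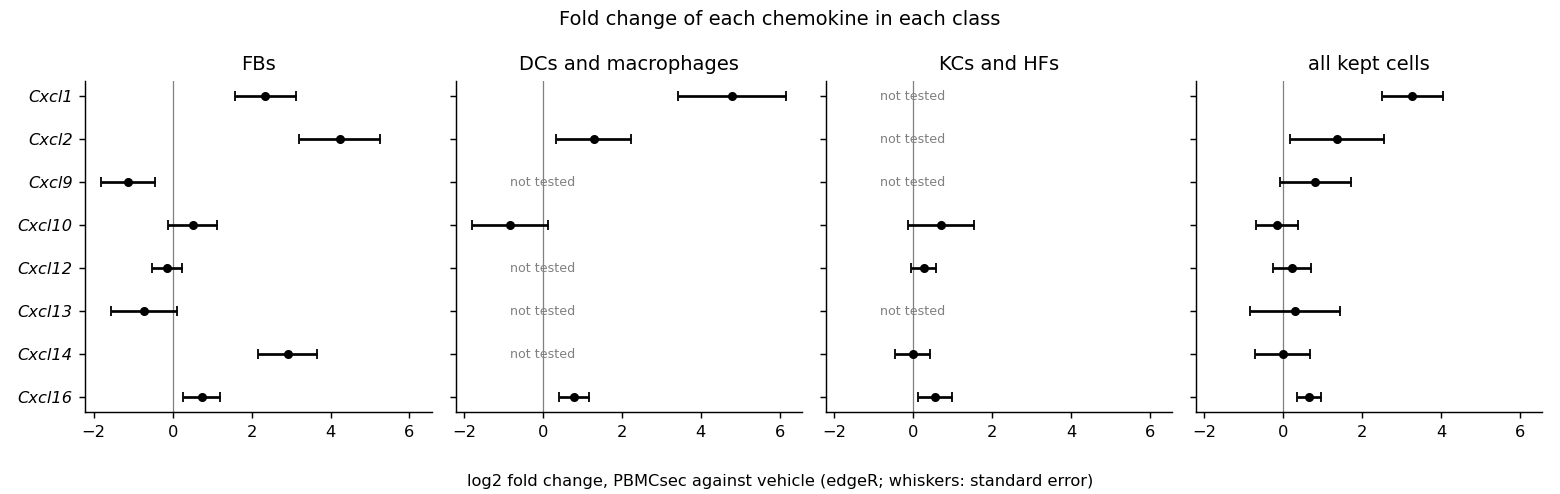
Log2 fold change of PBMCsec over vehicle for each member tested, by class. Bars show 1 standard error, derived as the size of the fold change over the square root of edgeR's F statistic. Cxcl1, Cxcl2 and Cxcl14 in FBs and Cxcl1 in DCs and macrophages and in all kept cells have the highest values (2.35 to 4.80), none of which passes an adjusted p of 0.05.

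The share of cells with a UMI was compared in 28 pairs of member and class over the 70 labellings of 8 libraries, where the smallest p possible is 0.0286. None passed (smallest adjusted p = 0.90 in the exact permutation test). In KCs and HFs, Cxcl14 was detected in 60.0 ± 14.2% of cells after PBMCsec and 75.1 ± 10.2% after vehicle (p = 0.143 in the same exact test), and in DCs and macrophages Cxcl16 in 50.3 ± 2.55% and 39.5 ± 15.5% (p = 0.257 likewise, exact).

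Genes of the signalling routes around the members were read from lists chosen with earlier results of these data known, by count and median. No gene of these lists passed an adjusted p of 0.05 in any class. In FBs, 15 of the 16 tested NF-κB response genes had a fold change above 0. At an unadjusted p under 0.05, 6 of them were higher, against 1.39% of all genes. The median was 0.77 on the log2 scale against 0.00 for all genes. These counts come from the fitted fold changes. In plain group means, where each library weighs alike, Tnfaip3 (88.3 against 147 TMM CPM), Birc3 (45.5 against 51.7) and Relb (21.1 against 21.7) were lower after PBMCsec. The other tested genes of the list were higher. The gene with the smallest p was Il6, an inflammatory cytokine gene, at 218, 20.1, 60.5 and 4.59 TMM CPM after PBMCsec and 4.12, 6.53, 8.38 and 0 after vehicle (log2 fold change 3.92). Its high libraries were PBMCsec 1 and 3, the same that were high in Cxcl1 and Cxcl2. The summed level of the list was 4459, 1295, 5017 and 1521 CPM after PBMCsec and 1436, 4283, 1335 and 891 after vehicle, so that vehicle 2 was also high. The interferon response genes showed no such lean in FBs (7 of 16 above 0, median −0.01). Of the early response genes, which tissue digestion also raises, Hspa1a, at 1.70, had the smallest p in FBs. These genes had 4 of 11 above 0, 2 of them at an unadjusted p under 0.05, and a median of −0.15. Their summed level was 10458, 5493, 7301 and 5037 CPM after PBMCsec and 7420, 9908, 4707 and 4518 after vehicle, so PBMCsec 1 was the highest library there as well. The part of digestion in the FB values was not tested. Of the processing genes, all 3 had fold changes below 0 in FBs, Adam10 at −0.47.

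In DCs and macrophages, 13 of 15 NF-κB response genes were above 0 (median 0.66 against −0.02), with the chemokine gene Ccl7 at 3.22, and 10 of 14 interferon response genes were above 0, with Cd274 at 1.93. In TCs, 11 of 11 interferon response genes were above 0, led by Isg15 at 1.97 (adjusted p = 0.409 by edgeR). At an unadjusted p under 0.05, 2 of these genes were higher, against 1.53% of all genes (median 0.42 against −0.02). In plain group means Tap1 was lower (161 against 162 TMM CPM) and the other tested genes of the list were higher. The sum over all 18 listed genes overlapped, at 4485, 4845, 4007 and 3891 CPM after PBMCsec and 4159, 3812, 3456 and 4253 after vehicle. In KCs and HFs, 12 of 12 interferon response genes were above 0, 3 at an unadjusted p under 0.05 (median 0.83 against 0.01 for all genes, of which 1.54% were higher at that p), led by Igtp at 1.35. The same sum overlapped there too, at 2547, 1850, 1896.5 and 1714 CPM after PBMCsec and 2499, 2128, 1260 and 1470 after vehicle. In the same class 10 of 11 early response genes (median 0.33) and 10 of 14 NF-κB response genes (median 0.36) were also above 0. Among the other ligands, Pf4 in DCs and macrophages measured 291, 253, 374 and 423 TMM CPM after PBMCsec and 23.6, 9.11, 161 and 239 after vehicle. The groups did not overlap on this scale. On unscaled CPM, 1.43% of genes in that class had every PBMCsec library above every vehicle library. The log2 fold change of Pf4 was 1.47 (SE 0.52, adjusted p = 0.9999 by edgeR). In macrophages alone the groups did overlap, at 788, 720, 1961 and 1133 CPM in PBMCsec 1 to 4 and at 740 and 933 CPM in vehicle 3 and 4, the vehicle libraries with at least 10 of these cells. Of the receptor genes tested in FBs, Ackr1, Ackr2 and Ackr3 had values of −0.61, −0.51 and −0.18, none past the test.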

How the data were processed

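Each of the 8 libraries was deposited as a filtered count matrix: per the labels and file headers, the authors aligned 10x 3′ reads to mm10 with Cell Ranger 3.0.2 and counted UMIs per gene and barcode (raw counts, whole numbers), whereas the study's methods name a later version. Libraries held 14753926 to 37880651 UMIs over all barcodes, and intervals and floors (3 counts) cover counting error only. From these counts, the study's own limits were applied, namely 500 to 4000 detected genes, no more than 20000 UMIs and no more than 5% of UMIs from mitochondrial genes. Libraries were integrated and clustered in Seurat 5.3.0 (2000 variable features without the 76 listed genes, 30 dimensions, resolution 1, 36 clusters of which 27 were named). A cluster was named where at least 3 markers of a class were in 25% of its cells and 2-fold higher than elsewhere, leading the next class by 2. No doublets were removed in the main results.

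Counts were summed per library and class, scaled by TMM and passed through filterByExpr, and the quasi-likelihood test of edgeR 4.0.16 was adjusted by Benjamini-Hochberg over all genes tested, where every library held at least 10 cells of the class. Standard errors (SE) were derived as the size of the log2 fold change over the square root of the F statistic of that test. Where the fold change is near 0, this ratio is poorly determined. The edgeR script was tested on simulated counts. The study's test over cells was not used, since cells are not replicates. Shares and orders of classes were tested by exact permutation over libraries (two-sided). The alternatives were DESeq2 1.42.0, no low-count filter, a replicate block, libraries numbered 1 and 2 alone or 3 and 4 alone, leaving out each library, a 10% mitochondrial limit, removal of the top 5% by Scrublet score, other clustering resolutions (0.5 and 2) and thinning to 1000 UMIs per cell. Thinning left out the cells under 1000 UMIs, 66 after PBMCsec and 46 after vehicle. The text names all 8 members, every receptor and other CXC ligand, the gene with the smallest p of each other list in a class where none passed, and 3 most similar genes per member. Members and lists were chosen with earlier results of these data known. Promoters came from RefSeq on GRCm38.p6, where 7 of 8 members matched, and gene positions from GENCODE M21. Of the lists, 1 gene, Cxcl11, was not among the rows used.

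Same-numbered libraries were called paired where the deviations from the group means correlated above 0.1 in every pair of libraries with the same number. This held in TCs (0.18 to 0.42) and in all kept cells (0.29 to 0.57), but not in FBs (−0.03 to 0.16), in KCs and HFs (0.00 to 0.43) or in DCs and macrophages (0.08 to 0.32). The main fits and the main tests of shares used no pairing in any class, also not in TCs and all kept cells. The replicate block was run as an alternative only. In all kept cells, however, libraries numbered 1 and 2 also correlated with each other across groups (0.19 and 0.43), as did those numbered 3 and 4 (0.31 and 0.51), while correlations between these subsets ran from −0.55 to −0.22. Deviations from a group mean cancel out within the group, so positive correlations force negative ones, which are no separate sign of a split. In all kept cells the numbers thus also set 1 and 2 apart from 3 and 4, and the labels do not say what they mark. In FBs, libraries numbered 1 and 2 had correlations of 0.14 and −0.04 across groups, and those numbered 3 and 4 of 0.02 and 0.10.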

Additional observations from a re-analysis of the deposited data

Results flagged for a closer look

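Of 48 groups of 4 libraries (member, class and treatment), 4 had 1 library standing apart from the other 3 by Dixon's test at the 95% level, a criterion that chance meets in about 1 in 20 groups. In FBs, Cxcl2 was at 0 TMM CPM in vehicle 2, a library with 20 FBs, against 23.6 to 25.9 in the other vehicle libraries. In DCs and macrophages, Cxcl1 was 63.8 TMM CPM in vehicle 2, from 7 UMIs in 2 of 15 cells, against 0 to 2.96. In the same class, Cxcl10 was 274.8 TMM CPM in vehicle 4 against 0 to 1.71 in the other vehicle libraries. In KCs and HFs, Cxcl10 was 69.0 TMM CPM in vehicle 3 against 1.44 to 6.45, and 1 cell of that library held 281 UMIs.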

How the results depend on the processing

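No member passed an adjusted p of 0.05 in the main fits, and the direction of the fold changes of Cxcl1, Cxcl2, Cxcl14 and Cxcl16 in FBs and of Cxcl1 and Cxcl2 in DCs and macrophages was the same under every alternative run. These were higher after PBMCsec. Cxcl13 in FBs, which was lower, also kept its direction (−1.29 to −0.27 with 1 library left out). Members passed under a few alternatives: in DCs and macrophages 3 without the low-count filter (Cxcl1, Cxcl2 and Cxcl13, the last from few cells) and 1 each with the replicate block (Cxcl1, 4.09) and in the libraries numbered 1 and 2 (Cxcl16), in FBs 1 in the libraries numbered 1 and 2 (Cxcl14), and in all kept cells 1 by DESeq2 (Cxcl1, adjusted p = 0.00124). In TCs, Cxcl2 was called lower only without the filter (−1.53), from few cells. Vehicle 2 held 72 UMIs in 2 of 50 TCs, 53 of them in 1 cell, and in PBMCsec 3 a single cell held 34 of 41. The leading class stayed the same for 7 of 8 members at resolution 0.5 and without the top Scrublet scores, where FBs replaced melanocytes for Cxcl1.

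Genes called numbered 2 in FBs in the libraries numbered 1 and 2 and 1 in those numbered 3 and 4. In TCs they numbered 3 by DESeq2, 37 without the filter, 10 with the replicate block, where the numbers pair the libraries, and 5 in the libraries numbered 3 and 4. In DCs and macrophages they numbered 7 by DESeq2, 110 without the filter, 4 with the block, 8 and 1 in the libraries numbered 1 and 2 and numbered 3 and 4, and 1 without the top Scrublet scores. In KCs and HFs they numbered 2 by DESeq2, 1 without the filter, and 5 and 1 in the same subsets, and in all kept cells 8 by DESeq2. Leaving out 1 library gave 0 to 1 gene in TCs and in DCs and macrophages and 0 to 2 in KCs and HFs. The causes were not tested. The block changed no other call.

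Fold changes (log2) that turned sign, none of them called, were Cxcl10 in FBs (−0.61 in numbers 3 and 4), Cxcl12 in FBs (0.027 with the block, 1.07 in numbers 1 and 2), Cxcl10 in DCs and macrophages (0.049 with the block, 7.38 in numbers 1 and 2, where vehicle libraries were at 0), Cxcl16 there (−0.11 in numbers 3 and 4), Cxcl10 in all kept cells (0.10 at 10% mitochondrial UMIs) and Cxcl12 there (−0.41 in numbers 3 and 4). Cxcl14, near 0 in the main fits, was 0.0032 by DESeq2, 0.042 with the block, 0.14 in numbers 1 and 2, 0.0063 without top Scrublet scores, and 0.037 and 0.27 at the other resolutions in KCs and HFs. In all kept cells it was 0.0079 by DESeq2, 0.0091 without the filter, 0.28 with the block, 0.95 in numbers 1 and 2 and 0.0079 without top Scrublet scores. With 1 library left out, the ranges that crossed 0 were −1.73 to 0.34 for Cxcl9, −0.24 to 1.45 for Cxcl10 and −0.38 to 0.17 for Cxcl12 in FBs, −1.30 to 5.06 for Cxcl10 in DCs and macrophages, −0.32 to 0.24 for Cxcl14 in KCs and HFs, and, in all kept cells, −0.40 to 0.48 for Cxcl10, −0.025 to 0.66 for Cxcl12, −0.35 to 0.84 for Cxcl13 and −0.46 to 0.31 for Cxcl14.

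Differences in the share of cells with a UMI, in percentage points, turned sign when cells were thinned for Cxcl14 in TCs (−0.97), in KCs and HFs for Cxcl9 (0.17), Cxcl10 (−0.27), Cxcl12 (0.29) and Cxcl16 (−0.61), and in all kept cells for Cxcl12 (−0.27) and Cxcl13 (−0.14). With 1 library left out, they ran from −3.09 to 7.58 for Cxcl1, −0.23 to 1.96 for Cxcl9 and −4.80 to 4.03 for Cxcl13 in FBs, −0.67 to 1.66 for Cxcl14 in TCs, −6.87 to 3.01 for Cxcl2 in DCs and macrophages, −1.46 to 0.58 for Cxcl9 and −9.80 to 3.8 for Cxcl12 in KCs and HFs, and, in all kept cells, −0.28 to 3.68 for Cxcl2, −0.33 to 0.51 for Cxcl9, −1.46 to 7.26 for Cxcl12, −0.56 to 1.30 for Cxcl13 and −12.5 to 2.22 for Cxcl14. KCs and HFs could not be tested apart, so the alternatives planned for each were not run. Vehicle 1 and 2 held 28 and 20 FBs, and 23 and 15 DCs and macrophages, so few cells set these levels.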

Other observations

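The treatment effects on a member were compared between classes in 10 exact permutation tests, none of which passed (smallest p = 0.0571, for Cxcl14 in FBs against KCs and HFs, adjusted p = 0.571). With 4 against 4 libraries such an exact test cannot go below p = 0.0286. A single test at that floor would not pass after adjustment over 10 tests, so these results cannot say whether effects differ between classes.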
